A study of Mus musculus with 486 samples.

Results

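Gfra1, Gfra2, Gfra3 and Ret encode 4 of the receptors for the GDNF family of growth factors and were measured by single-cell RT-qPCR in early lymphoid cells of mouse bone marrow. They are 4 of the 47 gene assays of the table and were taken by assay name, whatever their values. All cells came from wild-type C57/Bl6 mice, and the labels give no age and name no animal, treatment or culture. Single cells had been sorted by flow cytometry from common lymphoid progenitors (CLP), which can still form several lymphoid lineages, and from FrA, an early stage of the B-cell path. Among CLP, 87 cells were negative for both Ly6d and Gfra2 (Ly6d-Gfra2-), 86 carried Ly6d alone (Ly6d+Gfra2-) and 82 carried both (Ly6d+Gfra2+). Among FrA, 83 cells were negative for both Gfra2 and Bst1 (Gfra2-Bst1-), 83 carried Gfra2 alone (Gfra2+Bst1-) and 42 carried both (Gfra2+Bst1+). Every group filled 2 plates except Gfra2+Bst1+, which filled 1, and a plate held a single group.

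Gfra proteins are co-receptors held at the outer face of the membrane by a lipid (GPI) anchor. Each has a preferred ligand, which is GDNF for Gfra1, neurturin for Gfra2 and artemin for Gfra3. The complex of ligand and co-receptor signals through the receptor tyrosine kinase Ret, and the adhesion molecule Ncam1 is known as another partner. The family is best known from enteric, sensory and motor neurons and from kidney development, and Gfra2 serves here as a surface marker for sorting.

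An assay counted as detected when a threshold cycle (Ct) was recorded at 28 or below. Less template gives a later, higher Ct, with 1 cycle for each doubling at full PCR efficiency. Ct values were compared within an assay and never between assays. The identity of the cells was read from their markers. Of 5 CLP markers on the panel, Il7r was detected in 97.6% to 100% of the cells of each group and Ikzf1 in 100%, Dntt in 83.1% to 100% and Kit in 65.1% to 97.6%. Rag1, the fifth of them, ran from 8.05% in Ly6d-Gfra2- CLP to 80.7% in Gfra2+Bst1- FrA. Of 8 early B-lineage markers on the panel, which include Il7r, Cd24a was detected in 98.8% to 100% and Ebf1 in 33.3% to 100%. Foxo1 was detected in 56.3% to 100%, Pax5 in 2.30% to 97.6%, Pou2af1 in 0% to 71.4% and Igll1 in 0% to 78.6%. The last of the 8 is not reported here. Of 3 T-lineage markers, Bcl11b was at 0 in every group, Gata3 ran from 0% to 17.2%, and Lck was detected in 47.6% to 74.7% of the cells of each group. Of granulocyte and monocyte markers, Mpo ran from 8.43% in Gfra2-Bst1- FrA to 79.3% in Ly6d-Gfra2- CLP. Cebpa ran from 2.41% to 12.6% and Spi1 from 80.7% to 100%. Of NK and innate lymphoid markers, Nfil3 ran from 39.5% to 62.2% and Id2 from 28.9% to 58.1%. Klrb1c ran from 7.23% to 35.7% and Il2rb from 1.20% to 20.5%. The mean Ct of the 3 reference assays lay between 11.22 cycles (Ly6d-Gfra2- CLP) and 12.62 cycles (Gfra2-Bst1- FrA). Another 2 wells of plate 8 have titles that mark them as lacking reverse transcriptase but hold Ct values like those of cells. They entered no comparison, and 9 cells on other plates sit at well positions used for such controls.

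The promoter stretch of Gfra1 is shown because detection of Gfra1 differed between the sorted groups. The RefSeq table (GRCm38.p6) held an entry for Gfra1 and none for Gfra2 or Ret. In the 250 bases before its start, the E-box CANNTG, the motif read by E proteins and related factors, occurred 3 times. Both strands were searched, and 66.2% of 32851 promoters hold at least 1 match. The 2 windows shown lie on the minus strand, with the E-box in capitals and its first base 90 and 75 bases before the start.
Gfra1 E-box window, chr19:58455471-58455500: ggctactcgctgCAGCTGgacaccggtcaa
Gfra1 E-box window, chr19:58455456-58455485: ctggacaccggtCAATTGggttcaggttcg
The Ets core GGAA, which 93.4% of promoters hold, also occurred 3 times. These letters describe the stretch and show no binding.

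The signalling receptor itself was not detected. Ret gave a Ct in 0 of 463 cells. A count of 0 allows up to 0.648% of all cells to have detectable transcript, or 3.45% of the largest group (87 cells) and 7.14% of the smallest (42 cells). Gfra3 likewise gave 0 of 463 cells, with the same limits. The pooled wells, which held 300 cells in 20 wells of 10 or 20 cells, also gave 0 wells for either assay, which allows up to 1% of cells. In all, 0 of 486 wells recorded a Ct for Ret or Gfra3. No well here is known to contain either transcript, so the ability of these assays to detect it was not tested. Of the 14 genes listed for the pathway, 5 have an assay, and the remaining one, Gfra4, the co-receptor for persephin, was detected in 3 of 463 cells (1 in each sort of Gfra2- CLP and 1 in Gfra2+Bst1- FrA) and in 3 of 20 pooled wells. Ligands and Ncam1 are not among the assays.

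Gfra1 was the widely detected co-receptor. It was found in every group, including cells sorted as Gfra2-, and was detected in 286 of 463 cells (61.8%). Among CLP, the Ly6d-Gfra2- sort had 35 of 87 cells with Gfra1 (40.2%, exact 95% interval 29.9 to 51.3), the Ly6d+Gfra2- sort 49 of 86 (57%, interval 45.8 to 67.6) and the Ly6d+Gfra2+ sort 63 of 82 (76.8%, interval 66.2 to 85.4). Among FrA, the Gfra2-Bst1- sort had 44 of 83 (53%, interval 41.7 to 64.1), the Gfra2+Bst1- sort 69 of 83 (83.1%, interval 73.3 to 90.5) and the Gfra2+Bst1+ sort 26 of 42 (61.9%, interval 45.6 to 76.4). Intervals and limits cover counting error only. Each group is 1 sample because no animal is named, so differences between the sorts of single cells have no p-value.

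The plates of a group show how far Gfra1 can move without a change of sort. The Ly6d-Gfra2- CLP plates had 38.1% and 42.2%, the Ly6d+Gfra2- plates 52.4% and 61.4%, and the Ly6d+Gfra2+ plates 72.5% and 81%. For FrA, the Gfra2-Bst1- plates had 51.2% and 54.8%, the Gfra2+Bst1- plates 97.6% (plate 3) and 68.3% (plate 4), and the single Gfra2+Bst1+ plate 61.9%. The gap between plates 3 and 4, of a single sort, is wider than any gap between groups that neighbour each other in the order of their shares. In that order, plates overlap between Gfra2+Bst1- FrA and Ly6d+Gfra2+ CLP, and between Ly6d+Gfra2- CLP and Gfra2-Bst1- FrA. The counting intervals overlap for every pair of neighbours in that order.

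**Figure D1:**
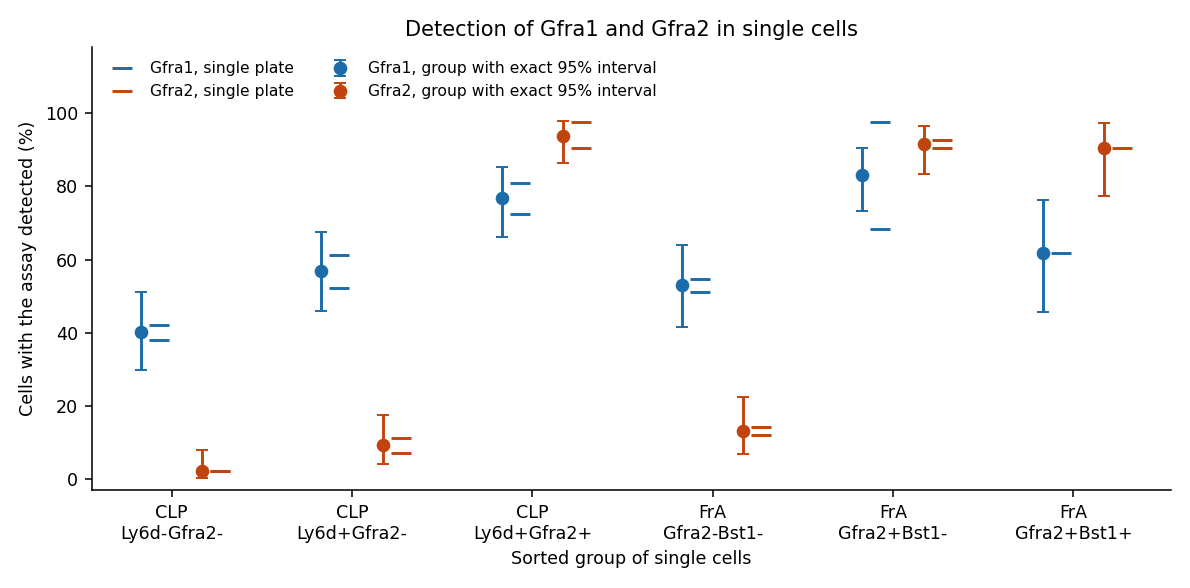
Share of single cells (%) with Gfra1 (blue) or Gfra2 (red) detected in each sorted group. Circles give the group share with its exact 95% interval and short bars give each plate. Gfra2 splits into low groups (2.30% to 13.3%) and high groups (90.5% to 93.9%), whereas Gfra1 runs from 40.2% to 83.1% with its widest plate gap in Gfra2+Bst1- FrA.

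Gfra2 followed the gate it was sorted on, which checks the labels and is no separate result. Among CLP, 2 of 87 cells of the Ly6d-Gfra2- sort (2.30%), 8 of 86 of the Ly6d+Gfra2- sort (9.30%) and 77 of 82 of the Ly6d+Gfra2+ sort (93.9%) had the transcript. Among FrA, the counts were 11 of 83 in the Gfra2-Bst1- sort (13.3%), 76 of 83 in the Gfra2+Bst1- sort (91.6%) and 38 of 42 in the Gfra2+Bst1+ sort (90.5%). On single plates it ran from 2.22% to 14.3% in Gfra2- sorts and from 90.5% to 97.5% in Gfra2+ sorts, so no plate of one gate reached the other.

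Gfra1 was detected more often where cells had been sorted as Gfra2+. A difference was called at 20 percentage points or more provided that the plates of both groups did not overlap. Within Bst1- FrA, the Gfra1 share was 30.1 points higher in Gfra2+ than in Gfra2- cells (95% interval 16.1 to 42.6), which was called, beside 23.4% of the 47 assays called higher in that step. Within Ly6d+ CLP, the same step gave 19.9 points (5.60 to 33.0) with separated plates and stopped just short of the 20 points, where 14.9% of assays were called higher. Gfra1 ranked 9 of 47 assays by size in both steps, where the median sizes were 7.23 points in FrA and 3.32 points in CLP. The FrA difference was 15.3 points and not called without plate 3, and in cells from the middle 50% of reference Ct it was 21.6 points with plates that overlapped. The reference Ct moved with this step, at 11.75 cycles in Gfra2+Bst1- against 12.62 cycles in Gfra2-Bst1- FrA, while in CLP it was 11.94 against 12.24 cycles. Its part in the FrA result was not tested beyond that restriction.

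The other steps differed in direction for Gfra1. Ly6d+Gfra2- CLP exceeded Ly6d-Gfra2- CLP by 16.7 points (1.87 to 30.6), with separated plates but below the rule, which called 4.26% of assays higher. Gfra2+Bst1+ FrA lay below Gfra2+Bst1- FrA by a called difference of -21.2 points (-37.7 to -5.06), beside 2.13% of assays called lower. That call was lost without plate 3, at -6.39 points, and without the well positions of controls, at -19.0 points. Between compartments, Gfra2+Bst1- FrA stood 6.30 points (-5.97 to 18.4) from Ly6d+Gfra2+ CLP, and Gfra2-Bst1- FrA stood -3.96 points (-18.5 to 10.8) from Ly6d+Gfra2- CLP. Neither was called, with 6.38% and 10.6% of assays called in either direction. These steps share groups with one another, so their values are not independent.

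Among detecting cells the raw Ct of Gfra1 differed little. In CLP the mean Ct was 13.70 ± 1.34 (SD, 35 cells) for the Ly6d-Gfra2- sort, 13.87 ± 2.43 (49 cells) for the Ly6d+Gfra2- sort and 13.96 ± 1.80 (63 cells) for the Ly6d+Gfra2+ sort. In FrA it was 13.87 ± 1.03 (44 cells) for the Gfra2-Bst1- sort, 13.51 ± 1.41 (69 cells) for the Gfra2+Bst1- sort and 14.11 ± 1.15 (26 cells) for the Gfra2+Bst1+ sort. All 6 raw means lie within 1 cycle, which is less than the SD over cells of any group. Relative to the reference assays of the same cell the means spread further, from 1.34 ± 1.13 cycles in Gfra2-Bst1- FrA to 2.51 ± 1.42 cycles in Ly6d-Gfra2- CLP, which are also the groups with the latest and the earliest reference Ct. The widest range was in Ly6d+Gfra2- CLP, from 10.50 to 24.72 cycles, with 4 cells above Ct 18. Levels were compared where at least 50% of the cells of both groups had the assay, and a difference was called at 1 cycle with separated plates. The Gfra2 step gave -0.09 cycles in CLP, where 13% of assays were called, and 0.36 cycles in FrA, where 36.4% were called. Relative to the reference assays it gave -0.32 cycles in CLP and -0.47 cycles in FrA. The FrA value thus changed direction, and neither was called. The Bst1 step gave -0.60 cycles, meaning less Gfra1 in Bst1+ cells, where 18.5% of assays were called. It met the rule in opposite directions under 2 alternatives, at -1.20 cycles by medians and 1.1 cycles relative to the spike-in of the well. The spike-in Ct itself differed, at 8.35 cycles in Bst1+ and 6.70 cycles in Bst1- FrA. FrA stood 0.45 cycles from CLP among Gfra2+ sorts (7.69% called), and the same comparison among Gfra2- sorts gave a value that rounds to no difference (13.6% called). None of the Gfra1 level differences was called on mean raw Ct.

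**Figure D2:**
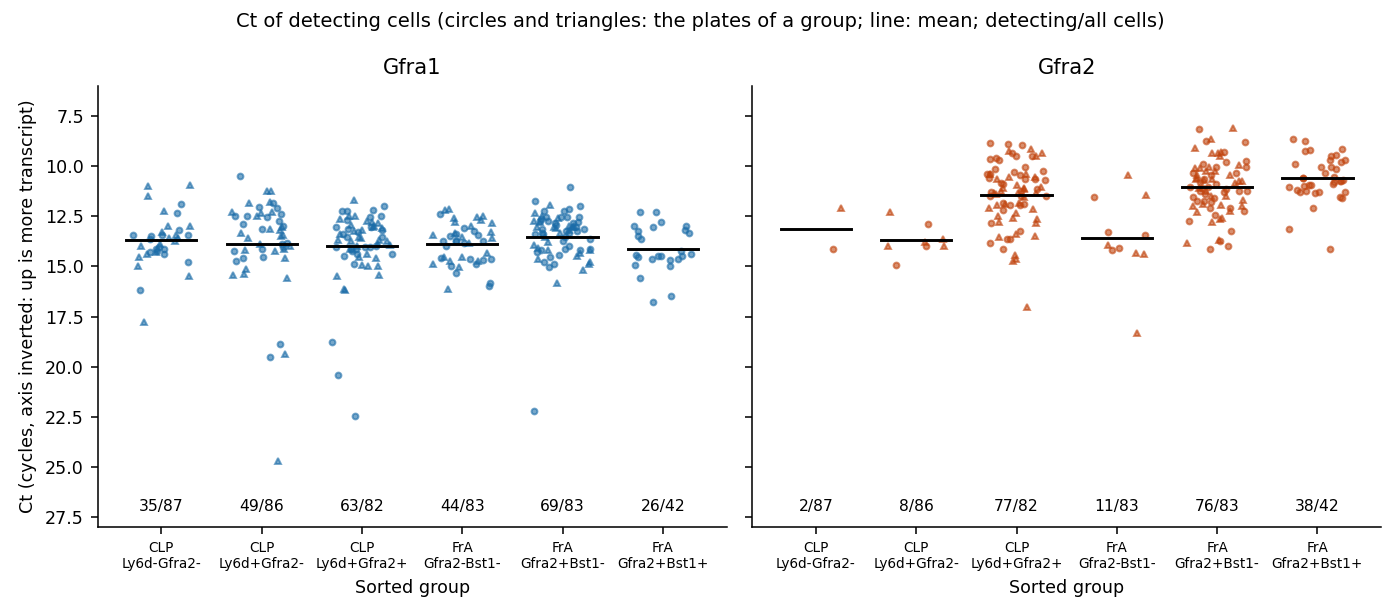
Ct (cycles, axis inverted so that up is more transcript) of every cell with Gfra1 or Gfra2 detected. Circles and triangles mark the plates of a group, lines give means and the numbers are detecting over all cells. Gfra1 means stay between 13.51 and 14.11 cycles, and Gfra2 cells of the Gfra2- sorts lie mostly in the lower part of the range of the Gfra2+ sorts.

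Gfra2 transcript in the cells sorted as Gfra2- was also of lower amount on average. In the Gfra2+ sorts its mean Ct was 11.42 ± 1.58 (77 cells) in CLP, 11.03 ± 1.35 (76 cells) in Bst1- FrA and 10.61 ± 1.11 (38 cells) in Bst1+ FrA. The 8 detecting cells of Ly6d+Gfra2- CLP had 13.69 ± 0.80 cycles, and all 8 lay above the upper quartile of the Gfra2+ CLP at 12.17 cycles. The 2 detecting cells of Ly6d-Gfra2- CLP had 12.08 cycles, just below that quartile, and 14.15 cycles. The 11 detecting cells of Gfra2-Bst1- FrA had 13.58 ± 2.08 cycles, and 8 lay above the upper quartile of the Gfra2+Bst1- cells at 11.89 cycles. The gaps between sorts were 2.27 cycles in CLP and 2.55 cycles in FrA, or 2.13 and 1.65 cycles after subtraction of each cell's reference Ct. Share and amount of Gfra2 thus both followed the gate. Among the Gfra2+ sorts, Bst1+ FrA stood 0.43 cycles above Bst1- FrA in Gfra2 level and Bst1- FrA stood 0.39 cycles above CLP, neither of which was called. Relative to the spike-in, the Bst1 difference was 2.05 cycles and was called. That value carries the spike-in Ct itself, with means of 8.35 cycles in Bst1+ and 6.70 cycles in Bst1- FrA. Spike-in Ct also differed between plates of one sort, at 6.63 and 10.08 cycles on plates 1 and 10 of Ly6d+Gfra2+ CLP.

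Presence of a Gfra2 transcript matched the sort label in 426 of 463 cells (92.0%, exact 95% interval 89.2 to 94.3). Of the 37 cells against their label, 16 of 207 were Gfra2+ sorts with no Gfra2 Ct and 21 of 256 were Gfra2- sorts with one. A lower Ct limit exchanged one error for the other. At a limit of 14 cycles, 428 cells matched, with 23 Gfra2+ and 12 Gfra2- sorts against. At 12 cycles, 403 matched, with 57 Gfra2+ and 3 Gfra2- sorts against. No limit tried between 12 and 28 cycles separated the gates by transcript alone.

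The cells against their label were described by Ebf1 and Pax5, transcription factors that specify and commit the B lineage, and by Gfra1. Among Gfra2-Bst1- FrA, the 11 cells with Gfra2 transcript had Ebf1 in 11 of 11 and Pax5 in 9 of 11. The 72 cells without it had Ebf1 in 34 and Pax5 in 8. Gfra1 did not split this way, at 6 of 11 against 38 of 72 cells, and the reference Ct of both sets was nearly equal at 12.63 and 12.62 cycles. Those 11 cells came from both plates, with Gfra2 Ct from 10.45 to 18.34 cycles.

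In Ly6d+Gfra2- CLP, the 8 cells with Gfra2 transcript had Ebf1 in 8, Gfra1 in 7 and Pax5 in 1, against 55, 42 and 7 of the 78 others. The 5 Ly6d+Gfra2+ CLP without Gfra2 transcript had Pax5 in 0 of 5 against 54 of 77, while Ebf1 was present in all 82. The 7 such cells of Gfra2+Bst1- FrA had Pax5 in 3 against 70 of 76, and Ebf1 in 5 against 76 of 76. In Gfra2+Bst1+ FrA, 4 cells lacked Gfra2 and had Pax5 in 3 and Gfra1 in 1, against 38 and 25 of the 38 others. Cells lacking Gfra2 in the Gfra2+ sorts had a later mean reference Ct. It was 12.50 against 11.91 cycles in CLP, 11.98 against 11.73 in Bst1- FrA and 12.08 against 11.85 in Bst1+ FrA. These gaps are smaller than the SD of reference Ct over the cells of each sort, at 0.91, 0.82 and 1.19 cycles. The part of input in the differences of Pax5, Ebf1 and Gfra1 was not tested.

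Joint detection was set beside the separate shares. Both transcripts were detected in 60 of 82 Gfra2+ CLP (73.2%), 63 of 83 Gfra2+Bst1- FrA (75.9%) and 25 of 42 FrA positive for both markers (59.5%). The product of the shares gives 59.2, 63.2 and 23.5 cells. Gfra2 was detected in 90.5% to 93.9% of these sorts, so the joint count can lie only near the product. Its closeness thus cannot show whether the detections are related. In the Gfra2- sorts both were detected in 1 of 87 Ly6d- CLP, 7 of 86 Ly6d+ CLP and 6 of 83 FrA, where the product gives 0.805, 4.56 and 5.83 cells. The phi coefficient, which is 0 when detections are unrelated, was 0.03, 0.20 and 0.10 in the CLP groups in the order given above, and 0.01, -0.02 and 0.25 in the FrA groups. In every group either the cells with Gfra2 or those without were few. Gfra1 was detected in 77.9% of 77 Ly6d+Gfra2+ CLP with Gfra2 against 60% of 5 without. The shares were 82.9% of 76 against 85.7% of 7 in Gfra2+Bst1- FrA. They were 54.5% of 11 against 52.8% of 72 in Gfra2-Bst1- FrA, and 50% of 2 against 40% of 85 in Ly6d-Gfra2- CLP. Phi was highest in Ly6d+Gfra2- CLP and Gfra2+Bst1+ FrA. In the first, 87.5% of the 8 cells with Gfra2 had Gfra1, against 53.8% of the 78 without, and phi was 0.08 and 0.28 on its plates. In the second it was 65.8% of 38 against 25% of 4 cells. Unequal shares of the 2 assays keep phi below 1, and both values rest on these few cells.

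Cells with only one co-receptor were unevenly placed. Gfra1 alone was found in 34, 42 and 3 cells of the CLP groups and in 38, 6 and 1 cells of the FrA groups, in the order used above. Gfra2 alone was found in 1, 1 and 17 CLP and in 5, 13 and 13 FrA. Cells with neither made up 58.6% of the Ly6d-Gfra2- CLP, 41.9% of those with Ly6d alone and 41% of the Gfra2- FrA, but 2.44%, 1.20% and 7.14% of the 3 Gfra2+ sorts. Where both were detected, their Ct values went together only loosely, with Spearman's rho of 0.02 (60 cells), 0.17 (63 cells) and 0.17 (25 cells) in the Gfra2+ sorts. Relative to the reference assays of the same cell rho was 0.22, 0.10 and 0.42. Those values subtract the same reference Ct from both assays, which can raise rho by itself.

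**Figure D3:**
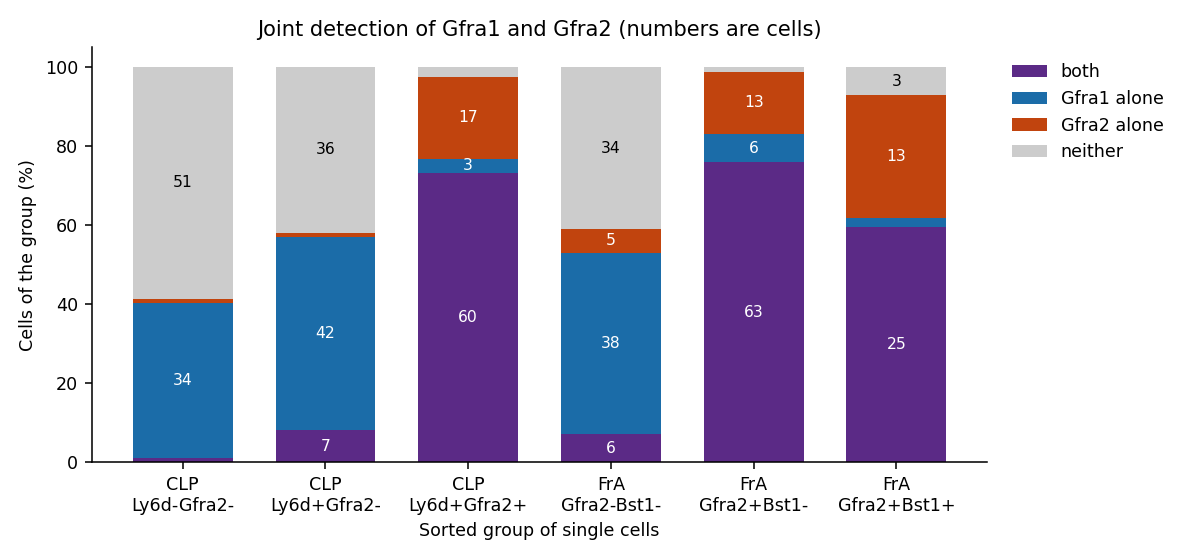
Share of cells (%) in each sorted group with both Gfra1 and Gfra2 detected, either alone, or neither, with the number of cells printed in the larger blocks. Cells with both make up 59.5% to 75.9% of the Gfra2+ sorts, and Gfra1 alone and neither make up most of the Gfra2- sorts.

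Other assays were set beside these receptors by their shares over the 11 plates, among 26 assays whose share spans at least 20 points. Those most like Gfra1 were Rag1 (part of the V(D)J recombinase, Pearson's r = 0.86), Ebf1 (0.83), Gfra2 (0.81), Pax5 (0.77) and Foxo1 (a forkhead factor of early B-cell development, 0.76). The lowest were Bcl2, an inhibitor of apoptosis (-0.79), Mpo, the myeloperoxidase of granulocyte precursors (-0.43), and Il2rb, a cytokine receptor chain of NK cells (-0.35). For Gfra2 the most alike were Pax5 (0.96), Rag1 (0.95), Pou2af1 (a B-cell transcriptional co-activator, 0.95), Ebf1 (0.89) and Klrb1c (the NK1.1 antigen, 0.89), and the lowest were Bcl2 (-0.93), Lck, a T-cell kinase (-0.62), and Il2rb (-0.53). The plates of one gate share their Gfra2 label but hold several sorts, and these coefficients carry both. Over the 6 plates of Gfra2- sorts and the 5 of Gfra2+ sorts taken apart, Gfra1 with Gfra2 gave 0.83 and -0.26, Gfra1 with Rag1 0.60 and 0.98, and Gfra2 with Pax5 0.78 and -0.48. Shares of Gfra1 and Gfra2 thus went together over the Gfra2- plates and not over the Gfra2+ plates, where Gfra2 spans only 90.5% to 97.5%. Among the Gfra2- plates, those of Ly6d-Gfra2- CLP were lowest for both, at 38.1% and 42.2% for Gfra1 and 2.38% and 2.22% for Gfra2. Differences between sorts thus remain in the values taken by gate.

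**Figure D4:**
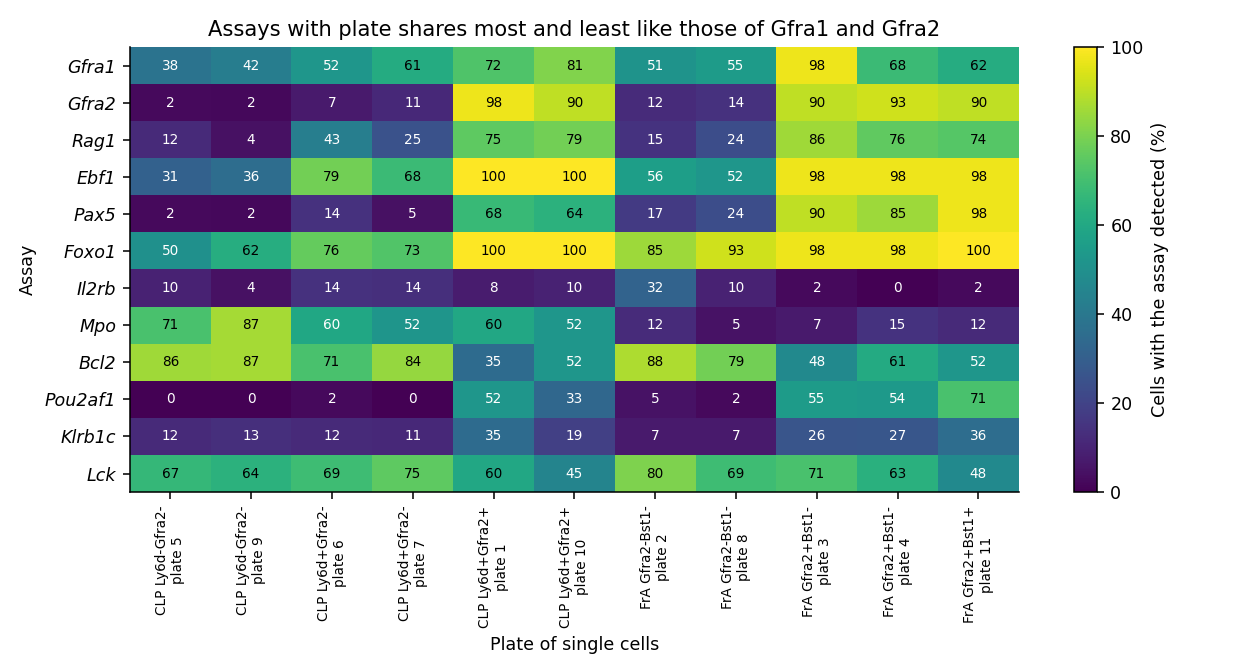
Share of cells (%) with each assay detected on each of the 11 plates, for Gfra1, Gfra2 and the assays most and least like them by Pearson's r over plates. Gfra2, Rag1 and Pax5 step up on the plates of Gfra2+ sorts, Gfra1 does so less sharply, and Bcl2 runs the other way.

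From cell to cell within a group, the associations of Gfra1 were weak. Its highest mean phi among assays of one sign in every group was with Bcl2l1, the gene of the survival protein Bcl-xL (0.19 over 6 groups, 0.08 to 0.27), then Ebf1 (0.16 over 3) and Igll1, a surrogate light chain gene (0.12 over 3). The lowest was Bach2, a transcriptional repressor of lymphoid cells (-0.11 over 6). Gfra2 went most with Pax5 (0.35 over 4 groups), at 0.04 and 0.35 in the Gfra2- and Gfra2+ sorts of Ly6d+ CLP, and at 0.59 and 0.42 in those of Bst1- FrA. Dntt, the terminal transferase of V(D)J joining (0.30 over 2), and Ebf1 (0.27 over 2) came next, and Il2rb (-0.11 over 3) and the myeloid factor Cebpa (-0.10 over 2) were lowest.

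Amounts were set beside each other in the same way. Where both were detected, Gfra2 Ct went with the Ct of Igll1 (mean Spearman's rho 0.51 over 2 groups), Cd24a, a surface glycoprotein of early B cells (0.49 over 3), and Ebf1 (0.49 over 3). These values were 0.46, 0.40 and 0.42 relative to the reference assays. Gfra1 Ct went most with the assay named PTPCR (0.31 over 6 groups), the Ikaros gene Ikzf1 (0.30 over 6) and Bcl2 (0.28 over 5). Relative to the reference these were 0.46, 0.32 and 0.21. The same reference Ct is subtracted from both assays there, which can raise rho by itself. A rise over the raw value is thus no sign that the amounts went together. Cells of a group share plates and input, and Gfra2 Ct itself went with reference Ct at rho 0.37, 0.41 and 0.58 in the Gfra2+ sorts.

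Pooled wells of 10 and 20 sorted cells gave an average over cells, with 1 well of each size on 10 plates and none for Gfra2+Bst1+ FrA. In such wells fewer expressing cells and less RNA per cell cannot be told apart. Gfra1 was detected in 20 of 20 wells, with Ct from 9.09 to 12.5 cycles. Gfra2 was detected in 8 of 8 wells of Gfra2+ sorts, from 6.14 to 8.90 cycles, and in 6 of 12 wells of Gfra2- sorts, from 11.4 to 17.1 cycles. The Gfra2 wells of the gates do not overlap. Of the Gfra2- wells, 1 of 4 in Ly6d- CLP, 2 of 4 in Ly6d+ CLP (both on plate 7) and 3 of 4 in FrA held Gfra2.

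The means of each plate were compared as cycles below 28, with a well without Ct at 0. For Gfra1 they were 17.86, 18.13, 18.19 and 17.46 on the Gfra2+ plates 1, 3, 4 and 10. On the Gfra2- plates 2, 5, 6, 7, 8 and 9 they were 16.43, 16.08, 16.92, 17.85, 16.42 and 17.46. Plate 7, of CLP, lay within the range of the Gfra2+ plates and plate 9, also of CLP, just under its lower end, so the sides overlap. The Gfra1 difference was 1.05 cycles (17.9 ± 0.33 on 4 plates, 16.9 ± 0.68 on 6), with a two-sided exact permutation p of 0.019 and an adjusted p of 0.0745 over 43 assays, and it was not called. Within FrA it was 1.74 cycles with separated plates, and within CLP 0.58 cycles with overlap. Plates 5 and 9 held Ly6d- cells, so the CLP value and the 1.05 cycles mix a difference in Ly6d with that in Gfra2. Among Ly6d+ CLP, plates 6 and 7 had 16.92 and 17.85 against 17.86 and 17.46 on plates 1 and 10. The reference Ct of the FrA wells also differed, from 7.30 to 8.83 cycles on Gfra2+ plates and from 8.13 to 10.09 cycles on Gfra2- plates. In the CLP wells it ran from 7.20 to 9.62 and from 6.84 to 9.28 cycles. The part of input in the Gfra1 differences within FrA and CLP was not tested.

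Gfra2, the sort gene, differed by 13.8 cycles (20.7 ± 0.87 against 6.87 ± 6.41), in the direction set by the gate. The exact permutation p was 0.00952, the smallest that 210 arrangements allow, and the adjusted p was 0.0455. Gfra2- wells without a Ct entered at 0, which widens the difference. In wells with a Ct the median was 7.17 cycles in Gfra2+ sorts and 14.3 cycles in Gfra2- sorts. The adjusted exact permutation p of Gfra2 was 0.0512 with 20-cell wells alone and 0.0569 to 0.114 without any 1 plate. The call was lost there, while the difference stayed between 11.8 and 15.4 cycles. Gfra2 was 1 of 8 assays called higher (18.6% of the 43), and 2.33% were called lower. The p-values measure the spread between plates, which the labels do not tie to separate animals.

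The pools were also set against what the single cells of their plate predict, which is the mean template per cell times the number of cells. Predicted minus measured Ct, which is negative where the pool came up later than predicted, had a median of -0.62 cycles for Gfra1 (-2.11 to 0.40 over 20 wells) and -0.55 cycles for the reference assays. For Gfra2 the median was -0.57 cycles in Gfra2+ sorts and -2.24 cycles in the 6 Gfra2- wells with a Ct. The median for Gfra1, and for Gfra2 in its own sorts, was thus close to that of the reference assays, while for Gfra2 in the Gfra2- sorts the prediction rests on 1 to 6 detecting cells per plate. From 10 to 20 cells, Gfra1 gained 0.76 ± 0.91 cycles (SD, 10 plates, higher in 7, exact sign-flip p = 0.0293, paired by plate) and the reference assays gained 0.86 cycles. Gfra2 gained 1.11 ± 1.45 cycles on the 6 plates with both wells detected (higher in 5, exact sign-flip p = 0.125, where 0.0312 is the smallest possible).

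**Figure D5:**
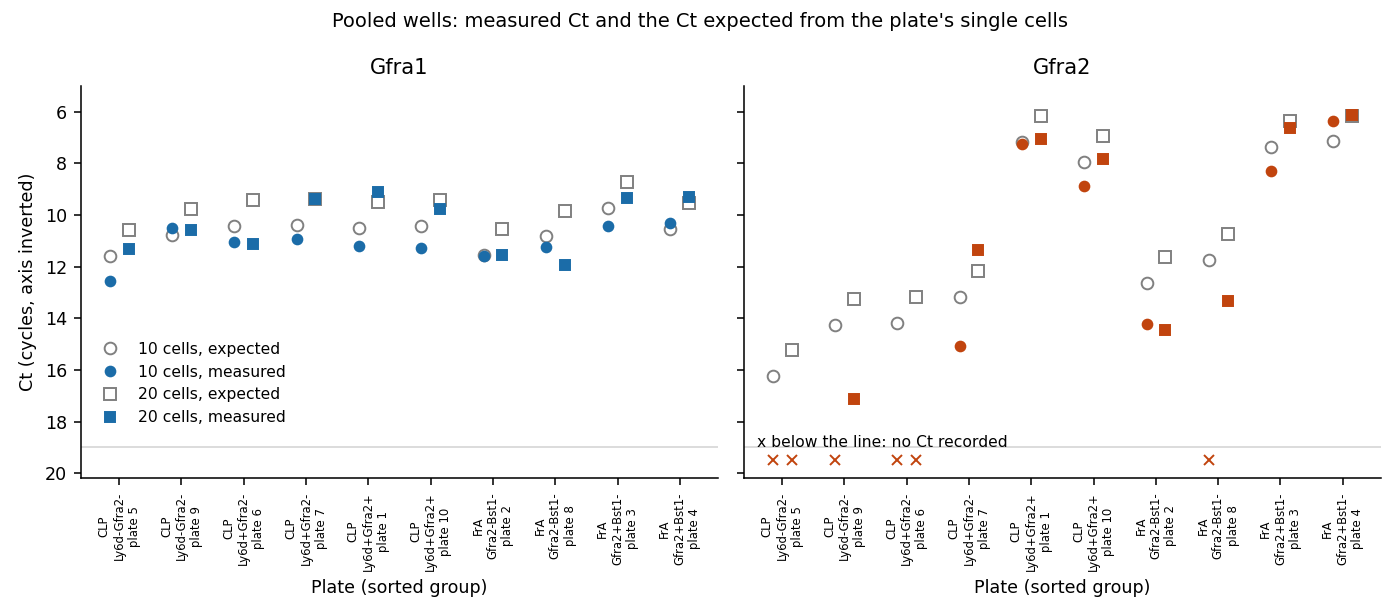
Ct (cycles, axis inverted) of Gfra1 and Gfra2 in pooled wells of 10 cells (circles) and 20 cells (squares) by plate, filled as measured and open as predicted from the single cells of that plate. Crosses mark wells with no Ct. Gfra1 was recorded in all 20 wells between 9.09 and 12.5 cycles, and Gfra2 in the Gfra2- sorts was missing in 6 wells and mostly later than predicted in the others.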

How the data were processed

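Sorted cells were lysed in plates, and their cDNA was pre-amplified and run with TaqMan assays on a BioMark instrument, per the labels' protocols. Ct values were deposited (4.69 to 28.1), and 40, at 46.8% of 23328 values, was taken as no Ct. No source used here gives the instrument software, its thresholds or a normalisation. The labels speak of 96 assays, and 47 genes and a spike-in are in the table. Cells needed at least 2 of 3 reference assays, which kept 463 of 464, with 40 to 45 per plate. Shares carry exact Clopper-Pearson intervals and differences Newcombe intervals, both at 95%. Levels were compared for assays detected in at least 50% of both groups. Pools were tested on plate means with exact permutation tests and Benjamini-Hochberg adjustment over all assays tested, at 0.05 (Python 3.11.15, scipy 1.17.1). The method was tested on simulated data with larger shifts than those of Gfra1, no plate effect and no pooled well without a Ct. Its power at the size of the Gfra1 differences was not tested. Associations are described without p-values. A planned search of the promoter for an Ebf1 motif was not run, because the files used hold no such motif. The window of 1 E-box match is not reported here.

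Genes other than the receptors were named by rule: the 5 highest and 3 lowest by r over plates, the 3 highest and 3 lowest by phi and the 3 highest by rho of Ct among those of one sign in every group, plus Ebf1, Pax5 and the lists of markers and of the GDNF receptor pathway. Negative phi of one sign was found for 1 assay with Gfra1 and 2 with Gfra2. The receptors, lists and tests were chosen with earlier results of these data known. Alternatives were other Ct limits, cell filters, input corrections, pool sizes, ranks and leaving out each plate. The values of 2 assays are left out of the text and kept in counts and means.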

Additional observations from a re-analysis of the deposited data

Results flagged for a closer look

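Both wells whose titles mark them as lacking reverse transcriptase, on plate 8, drew attention because they hold signal outside the comparisons. In the well at position 30, Gfra1 was recorded at 12.18 cycles and Gfra2 at 12.99 cycles, with 26 gene assays detected and a reference Ct of 11.65. In the well at position 36, Gfra1 was recorded at 14.94 cycles and Gfra2 was not, with 25 gene assays detected and a reference Ct of 12.41. The Gfra1 values fall within the range of detecting cells of the same plate, and neither well recorded Ret or Gfra3. Their descriptions call them cells, and which of the labels holds was not tested.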

How the results depend on the processing

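Of 329 recomputed values, 279 were counted as the same. For differences this meant an unchanged call, with direction compared only where a call was made. Differences that were never called could thus change sign and still count. For joint detection, phi and label agreement it meant a value inside the interval of the main result, and for counts of pooled assays a similar count. The Gfra1 share difference for Gfra2 in CLP was called at Ct limits of 24 (21.0 points) and 18 (20.8), with all reference assays detected (20.6) and in cells from the middle 50% of reference Ct (23.1), and ran from 15.5 to 24.4 points without 1 plate. In those middle cells it was 21.6 for Gfra2 in FrA (plates overlapped, not called) and 20.6 for Ly6d (called). Without 1 plate these ran from 15.3 to 44.6 and from 12.2 to 21.1. For Bst1 it was -19.0 without control positions and -35.7 to -6.39 without 1 plate. The contrast of Gfra2+ FrA with CLP ran from -8.54 to 20.8. The Gfra1 level for Bst1 was 1.1 cycles relative to the spike-in (reversed, called) and -1.20 by medians (called). That of Gfra2 was 2.05 relative to the spike-in (called). Both values relative to the spike-in carry its own Ct, which was 8.35 cycles in Bst1+ and 6.70 cycles in Bst1- FrA. The cause of the other changes was not tested.

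Joint detection was 0% of Ly6d-Gfra2- CLP in middle cells, 0% to 2.22% without 1 plate, and 63.4% to 88.1% of Gfra2+Bst1- FrA. With 20-cell wells alone, 0 assays passed the pooled test (smallest adjusted p = 0.0512 by exact permutation, 14 at unadjusted p under 0.05), and Gfra2 differed by 11.8 cycles. Without 1 plate the count was 0 to 0 and Gfra2 differed by 12.4 to 15.4 cycles (adjusted exact permutation p 0.0569 to 0.114), since fewer plates leave fewer arrangements. The gain of Gfra1 from 10 to 20 cells, paired by plate, was 0.76 cycles with no replicate block (exact permutation p = 0.0747), -0.11 relative to the reference assays (exact sign-flip p = 0.689), and 0.61 to 0.92 without 1 plate (p 0.0273 to 0.0586). For Gfra2 the gain with no replicate block was 1.11 cycles. Each plate held 1 group, so plate and group cannot be told apart.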
